A study of Macaca mulatta with 25 samples.

Results

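Insulin and the insulin-like growth factors (IGFs) reach an embryo from the mother's fluids or the culture medium, or are made by the embryo itself. They bind receptor kinases at the cell surface, INSR and IGF1R, which phosphorylate the docking proteins IRS1 and IRS2. These in turn recruit PI3 kinase and AKT, and AKT keeps the transcription factor FOXO1 out of the nucleus. IGF binding proteins hold IGFs outside the cell, and IGF2R takes IGF2 to the lysosome without signalling as a kinase. TXNIP, which binds thioredoxin and restrains glucose uptake, is a gene that many cells switch on when glucose enters. The system is known for its role in growth and glucose use of the early embryo.

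The expression of 10 genes of this system was measured in blastocysts of the rhesus macaque, hollow embryos that are ready to implant. They were 3 receptors (INSR, IGF1R, IGF2R), 2 substrates (IRS1, IRS2), 3 binding proteins (IGFBP2, IGFBP3, IGFBP4), FOXO1 and TXNIP, found by matching macaque Ensembl identifiers to these symbols. All 10 were among the 35395 genes of the count table, and all 10 were among the 13934 genes with enough counts to be tested.

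The blastocysts came from females treated for 5 to 6 years from about 2.5 years of age, with 10 females assigned to each of 4 groups. T females carried testosterone implants and ate a standard chow with 15% fat, 59% carbohydrate and 26% protein. WSD females ate a Western-style diet with 36% fat, 46% carbohydrate and 18% protein. TWSD females had both the testosterone implants and that diet. C females, the controls, carried cholesterol implants and ate the standard chow. Gonadotropin stimulation, which all groups received, was completed in 7 T, 6 WSD, 3 TWSD and 10 C females, with health problems named as the reason for the loss. Oocytes were fertilized in vitro with sperm of proven males and the embryos were cultured for up to 8 days. RNA sequencing gave 10 T, 8 WSD, 2 TWSD and 5 C libraries with 14219054 to 35544542 counts each. The labels do not give the mother or father of a library, nor whether it is 1 embryo, so p-values measure the spread between libraries, some of which may share a parent.

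Levels are given as CPM, counts scaled to a common library size with TMM factors, in which 1 CPM was 14.6 to 36.6 counts. They are compared for a gene across libraries and not between genes, because counts also grow with transcript length. A gene was called changed when edgeR's quasi-likelihood test gave a Benjamini-Hochberg adjusted p under 0.05 over all tested genes. Libraries are named by group and the number in their label, as in C 12. The TMM factor was 0.7075 in C 12 and 0.7625 in TWSD 2, and between 0.9448 and 1.0962 in all other libraries. A lower factor raises every CPM of a library.

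T 1, C 8, C 11 and C 12 stood apart in CGA, and C 11 and C 12 also in POU5F1. CGA, the hormone subunit made by syncytiotrophoblast of the implanting placenta, was at 1004 CPM in T 1, 3025 CPM in C 8, 2400 CPM in C 11 and 1073 CPM in C 12, and at no more than 4.24 CPM in the other 21 libraries. POU5F1, a pluripotency factor of the inner cell mass, was at 8.51 CPM in C 11 and 0.627 CPM in C 12, and at 206 CPM or more elsewhere. The 12 epiblast markers in the table summed to 1907 to 3350 CPM in T and 1467 to 2871 CPM in WSD. In TWSD that sum was 2310 to 2327 CPM and in C 472 to 4383 CPM. C 11 had the lowest epiblast sum and C 12 the highest, of which DNMT3L made 4360 CPM. GATA3, a trophectoderm factor, was present in every library at 84.2 CPM or more. Another, TFAP2A, was at 306 CPM in T 1, 1147 CPM in C 8, 521 CPM in C 11 and 1161 CPM in C 12. Elsewhere it was at most 90.6 CPM. The 10 trophectoderm markers in the table summed to 3264 to 13150 CPM in T and 5336 to 20620 CPM in WSD. In TWSD that sum was 5460 to 8025 CPM and in C 1711 to 14130 CPM. The summed level of 11 of 12 listed syncytiotrophoblast markers ran from 375 to 4806 CPM in T, 435 to 1071 CPM in WSD, 119 to 511 CPM in TWSD and 274 to 13050 CPM in C. Of these 11, ERVW-1 was at 0 in 18 of 25 libraries. The 14 cumulus and granulosa markers summed to 53.6 to 124 CPM in T, 52.0 to 89.4 CPM in WSD, 86.8 to 121 CPM in TWSD and 105 to 1223 CPM in C. C 11 was highest in that sum and C 12 next, at 234 CPM. Of this list, HAS2, TNFAIP6 and VCAN peaked in C 11, at 267, 212 and 667 CPM. AMH and FOXL2 peaked in C 12, at 8.88 and 10.9 CPM, and STAR in TWSD 2, at 102 CPM. The FSH receptor FSHR was at 0 in 18 of 25 libraries, and INHBA, INHBB, PTX3, LHCGR and GREM1 did not exceed 2.24 CPM in any. The 11 primitive endoderm markers in the table summed to 756 to 5203 CPM in T, 1406 to 4685 CPM in WSD, 856 to 1812 CPM in TWSD and 696 to 19670 CPM in C, again with C 11 highest. The sums of 7 blood, 6 sperm and 12 oocyte markers did not exceed 243, 3.45 and 536 CPM in any library. TWSD 2 held that oocyte sum, with T 11 next at 505 CPM, and the lowest syncytiotrophoblast sum, 119 CPM. Of the primitive endoderm list, SOX17 and GATA4 were at 0.193 and 0.451 CPM in TWSD 2, beside 99.1 and 55.3 CPM in TWSD 3. C 12 was low in both too, with SOX17 at 0.1045 CPM, the lowest of all libraries, and GATA4 at 1.358 CPM. It also had the lowest primitive endoderm sum, 696 CPM. The primitive endoderm sum of TWSD 2, 856 CPM, lay within the range of T. C 1 had the lowest trophectoderm sum, 1711 CPM, and GATA4 at 0.1175 CPM. Because each library is bulk RNA, fewer cells of a type and less RNA per cell cannot be told apart. Of the 5 C libraries, only C 1 and C 2 lacked the high CGA, so changes against C are also given without the other 3 where the gene could then be tested.

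**Figure D1:**
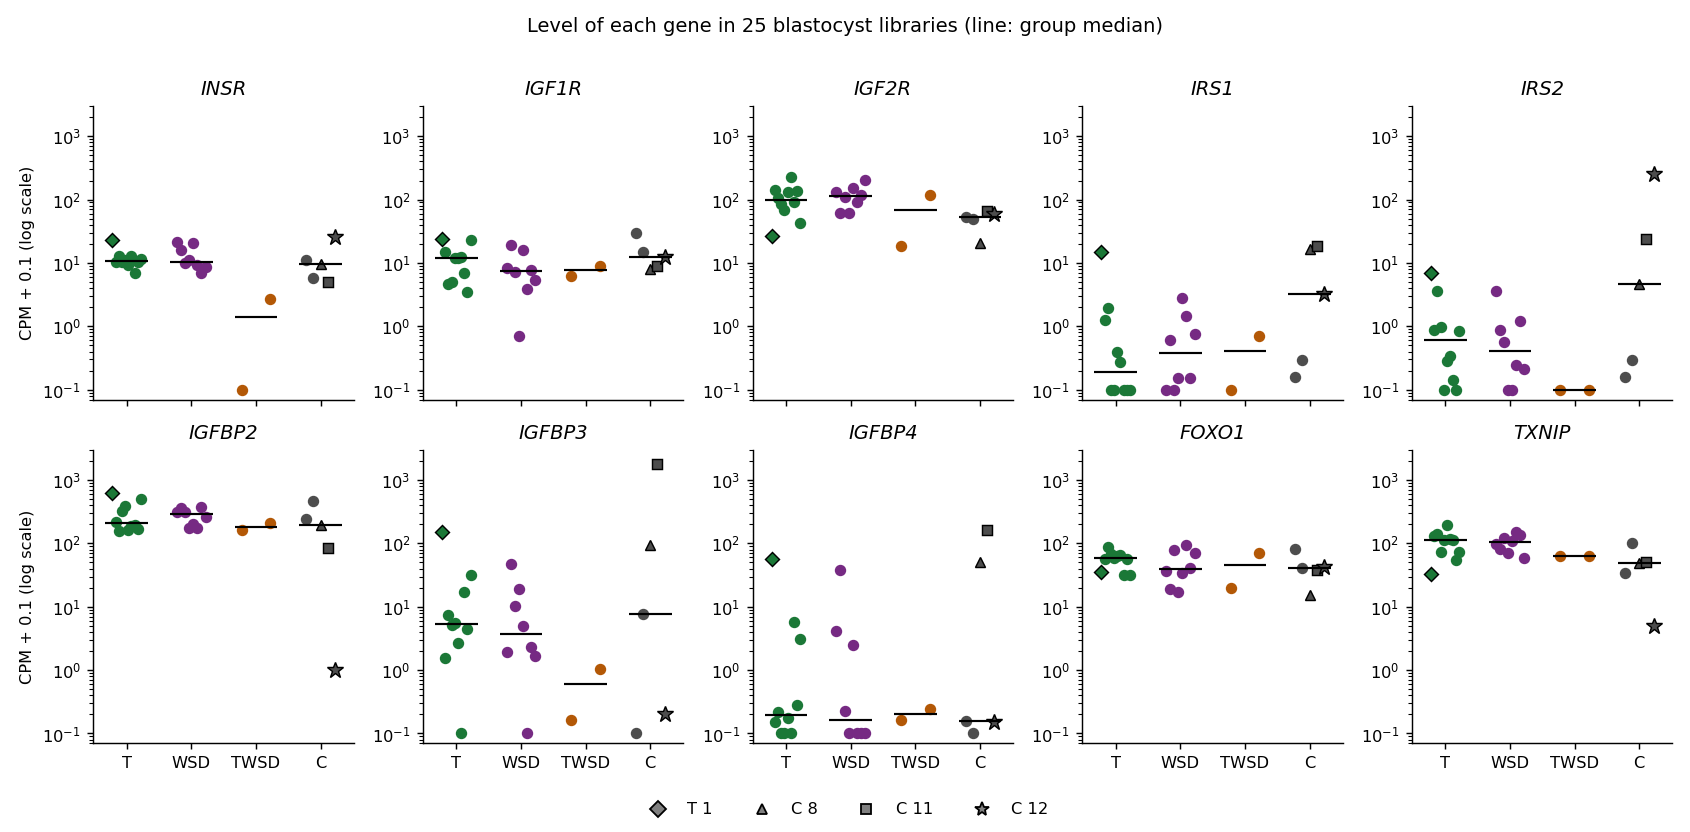
Level of each of the 10 genes in each library, as CPM + 0.1 on a log axis, in T, WSD, TWSD and C, with a line at the group median. Diamonds mark T 1, triangles C 8, squares C 11 and stars C 12, among which are the highest values of INSR, IRS1, IRS2, IGFBP2, IGFBP3 and IGFBP4. IGFBP2 and TXNIP have their lowest value in C 12 and INSR its lowest in the 2 TWSD libraries.

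One of the 10 genes was called against C in T and in WSD, and it was IRS2 in both. IRS2 fell, with a log2 change of −5.44 ± 1.43 in T (SE, adjusted p = 0.0317) and −6.24 ± 1.63 in WSD (adjusted p = 0.0308), by edgeR's quasi-likelihood test. Over all genes, 4.11% were called in T against C and 4.07% in WSD against C, and 3.77% and 3.6% were called as lower, so the count of 1 in 10 rests on a single gene. An unadjusted p under 0.05 in edgeR was found for 4 of the 10 in T and 4 in WSD, beside 18.3% of all genes in each. DESeq2 called 1 of the 10 in T and 2 in WSD, beside 8.08% and 8.68% of all genes, and limma-voom called 0. The median log2 change of the 10 genes was −0.12 in T, where it was −0.12 over all genes, and −0.31 in WSD, where it was −0.12 over all genes. In TWSD against C, edgeR called 0 of the 10 genes against 1.2% of all genes. There 3 of the 10 had an unadjusted p under 0.05, against 22.0% of all genes, DESeq2 called 3 against 14.6% of all genes, and limma-voom called 0. The median of the 10 was −2.02 in TWSD, with IRS2 taken as fitted or at its bound, against −0.38 over all genes.

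**Figure D2:**
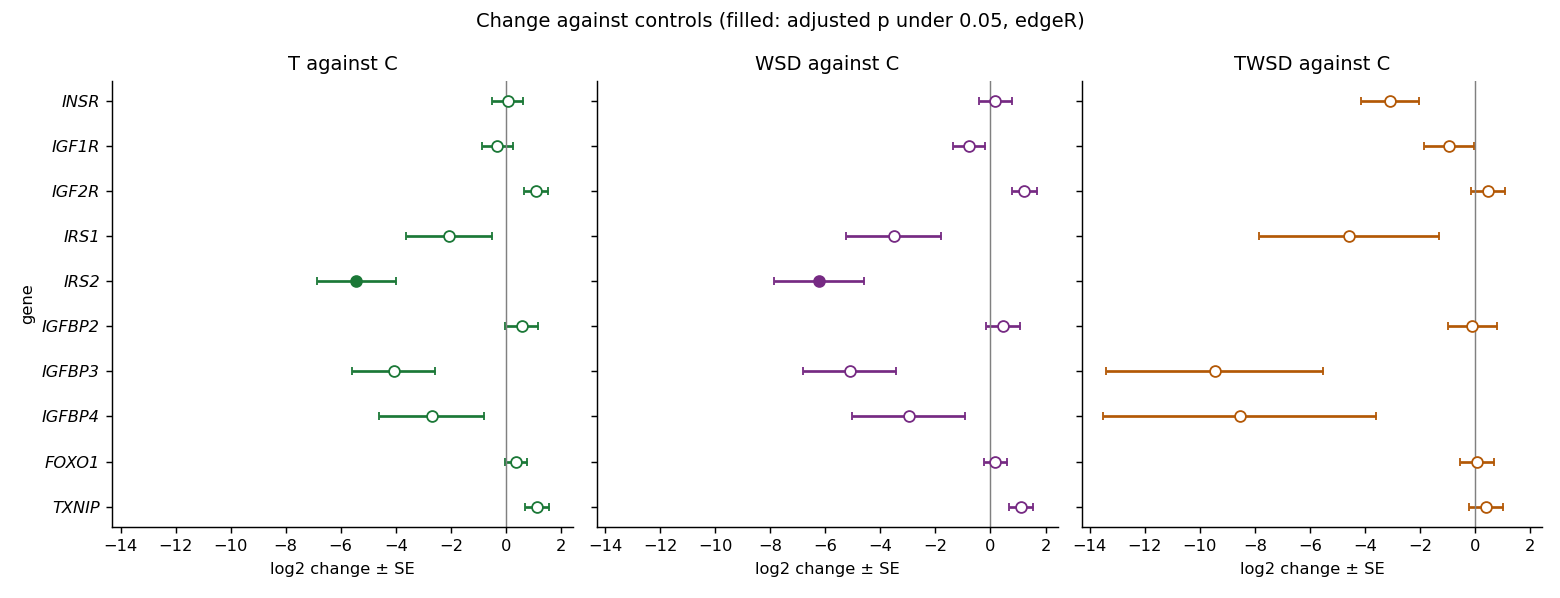
Log2 change against C with its standard error for each gene in T, WSD and TWSD, from edgeR fitted to all 25 libraries. Filled points have an adjusted p under 0.05, which IRS2 reached in T and WSD, and IRS2 is not drawn in TWSD because both libraries had 0 counts.

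The receptors come first. INSR, the insulin receptor kinase, differed little between single treatments and C and was lowest in TWSD. It was at 6.76, 10.6 and 23.2 CPM in T (lowest, median, highest) and at 6.79, 10.3 and 21.3 CPM in WSD. TWSD 2 had 0 counts, where 3 counts would be 0.193 CPM, and TWSD 3 had 73 counts, or 2.62 CPM. The C libraries had 11.1, 5.72, 9.41, 4.91 and 25.4 CPM in C 1, C 2, C 8, C 11 and C 12. Both TWSD libraries lay below every other library, while T and WSD lay within the range of C. A position of both TWSD libraries below all 23 others was found for 108 of the tested genes, or 0.775%.

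In edgeR the INSR change in TWSD was −3.08 ± 1.05 against C (adjusted p = 0.11), −3.15 ± 1.03 against T (adjusted p = 0.191) and −3.27 ± 1.04 against WSD (adjusted p = 0.178), none of which was called. DESeq2 called all 3, with −3.19 (adjusted p = 0.0016), −3.15 (adjusted p = 0.00177) and −3.27 (adjusted p = 0.00141). DESeq2 called 4.27% of all genes in TWSD against T and 4.21% in TWSD against WSD. The value rested on TWSD 2, the library with 0 counts, and the part of its makeup was not tested. Without TWSD 2 the change against C was −2.10 (adjusted p = 0.637), and without TWSD 3 the fitted value was −10.91 (adjusted p = 0.000182). That fit has 0 counts in its only TWSD library and is no measured fold: taking TWSD 2 as at most 3 counts (0.193 CPM), INSR there was at least 58.5-fold lower than the C mean, and at least 43.5-fold lower than the mean of C 1 and C 2. In T and WSD the log2 changes of INSR against C were 0.06 ± 0.57 (adjusted p = 0.973) and 0.18 ± 0.59 (adjusted p = 0.923), and the first was −0.05 with DESeq2's size factors. With C 8, C 11 and C 12 left out, the INSR changes were 0.53 in T, 0.65 in WSD and −2.61 in TWSD, with adjusted p of 0.998, 0.954 and 0.244.

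The test of whether the diet changed gene levels differently with and without testosterone compares TWSD minus T with WSD minus C. For INSR this difference of differences was −3.33 ± 1.15 (edgeR adjusted p = 0.200), and −3.22 by DESeq2 (adjusted p = 0.0226). edgeR called 0 of the 10 genes and 0.0718% of all genes in it. An unadjusted p under 0.05 was found for 3 of the 10 and 13.6% of all genes, DESeq2 called 1 of the 10 and 2.89% of all genes, and limma-voom called 0. Besides INSR, IGF2R at −1.86 ± 0.78 (adjusted p = 0.293) and TXNIP at −1.83 ± 0.79 (adjusted p = 0.300) had the smallest p-values.

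IGF1R, the kinase that binds IGF1 and IGF2, was not called in any comparison. Its levels were 3.42, 11.9 and 23.5 CPM in T and 0.595, 7.32 and 18.9 CPM in WSD (lowest, median, highest). TWSD 2 and TWSD 3 had 6.12 and 8.99 CPM, and the C libraries had 29.2, 14.7, 7.93, 9.0 and 12.1 CPM in the order C 1, C 2, C 8, C 11 and C 12. C 1 was the highest of all libraries and WSD 6 the lowest, and 4 of 10 T, 5 of 8 WSD and 1 of 2 TWSD libraries lay below every C library. The log2 changes against C were −0.31 ± 0.56 in T (adjusted p = 0.843), −0.79 ± 0.58 in WSD (adjusted p = 0.526) and −0.95 ± 0.92 in TWSD (adjusted p = 0.557). With C 1 and C 2 as the only controls they were −0.86, −1.33 and −1.51, with adjusted p of 0.998, 0.794 and 0.523.

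The balance of the 2 receptor kinases was described by the log2 ratio of their counts (0.5 added to each), whose zero has no meaning because the transcripts differ in length. IGF1R over INSR was −1.57, 0.01 and 1.02 in T and −4.14, −0.57 and 0.26 in WSD (lowest, median, highest). The ratio was 7.58 in TWSD 2 and 1.77 in TWSD 3, and ran between −1.07 and 1.40 in C with a median of 0.87. Both TWSD libraries lay above all others, and WSD had the lowest median. In TWSD 2, with 0 counts of INSR, the size of the ratio is set by the 0.5 added. This is a description with no test.

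IGF2R, the clearance receptor for IGF2, was 2.12-fold in T and 2.35-fold in WSD relative to C, without passing the test. It was at 26.1, 98.6 and 224 CPM in T and 62.0, 114 and 200 CPM in WSD (lowest, median, highest). TWSD 2 had 18.7 CPM and TWSD 3 118 CPM, and the C libraries had 53.6, 48.6, 20.8, 65.9 and 58.5 CPM in the same order as above. In T 8 of 10 libraries and in WSD 6 of 8 lay above every C library, while T 1 with 26.1 CPM lay below all C libraries but C 8. The log2 change was 1.09 ± 0.44 in T (adjusted p = 0.164), 1.23 ± 0.45 in WSD (adjusted p = 0.121) and 0.46 ± 0.62 in TWSD (adjusted p = 0.681). Without C 8, C 11 and C 12 the values were 1.08, 1.22 and 0.45, nearly the same size, with adjusted p of 0.998, 0.764 and 0.829. The 2 TWSD libraries differed from each other more than the group means did, and without TWSD 3 the TWSD change was −1.40.

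The substrates were close to absent in most libraries and high in a few. IRS2 had 0, 0.498 and 6.84 CPM in T and 0, 0.308 and 3.46 CPM in WSD (lowest, median, highest), and 0 counts in both TWSD libraries. The C libraries had 0.0587 CPM in C 1, 0.195 CPM in C 2, 4.63 CPM in C 8, 24.0 CPM in C 11 and 255 CPM in C 12. The mean of 56.7 ± 111 CPM in C (SD, n = 5) was thus mostly 1 library, against 1.32 ± 2.20 CPM in T (n = 10) and 0.756 ± 1.16 CPM in WSD (n = 8). C 1 and C 2 lay within the range of T and WSD, and C 11 and C 12 above it, as did C 8 for WSD.

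The IRS2 calls depended on C 12. Without it the log2 change was −2.48 in T (adjusted p = 0.528) and −3.27 in WSD (adjusted p = 0.387). The calls also ended, with changes of nearly full size, on leaving out any of T 3, T 5, T 7, T 8, T 9 and T 11 for T (adjusted p 0.0503 to 0.054), or any of WSD 3, WSD 4, WSD 7, WSD 8, WSD 9 and WSD 10 for WSD (adjusted p 0.0535 to 0.0586). Without C 8, C 11 and C 12 too few libraries had 1 CPM for IRS2 to be tested, and the mean of C 1 and C 2 was 0.127 CPM. C 12 was also the library with the lowest POU5F1 and with CGA at 1073 CPM, and the part of this in the IRS2 result was not tested. In TWSD, IRS2 was at least 819-fold lower than the C mean, counting both TWSD libraries together as at most 3 counts (0.0692 CPM). That limit rests on C 12 too: it was 104-fold without C 12 and 1.83-fold against C 1 and C 2. edgeR's adjusted p for TWSD was 0.108, and DESeq2's was 0.000186.

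**Figure D3:**
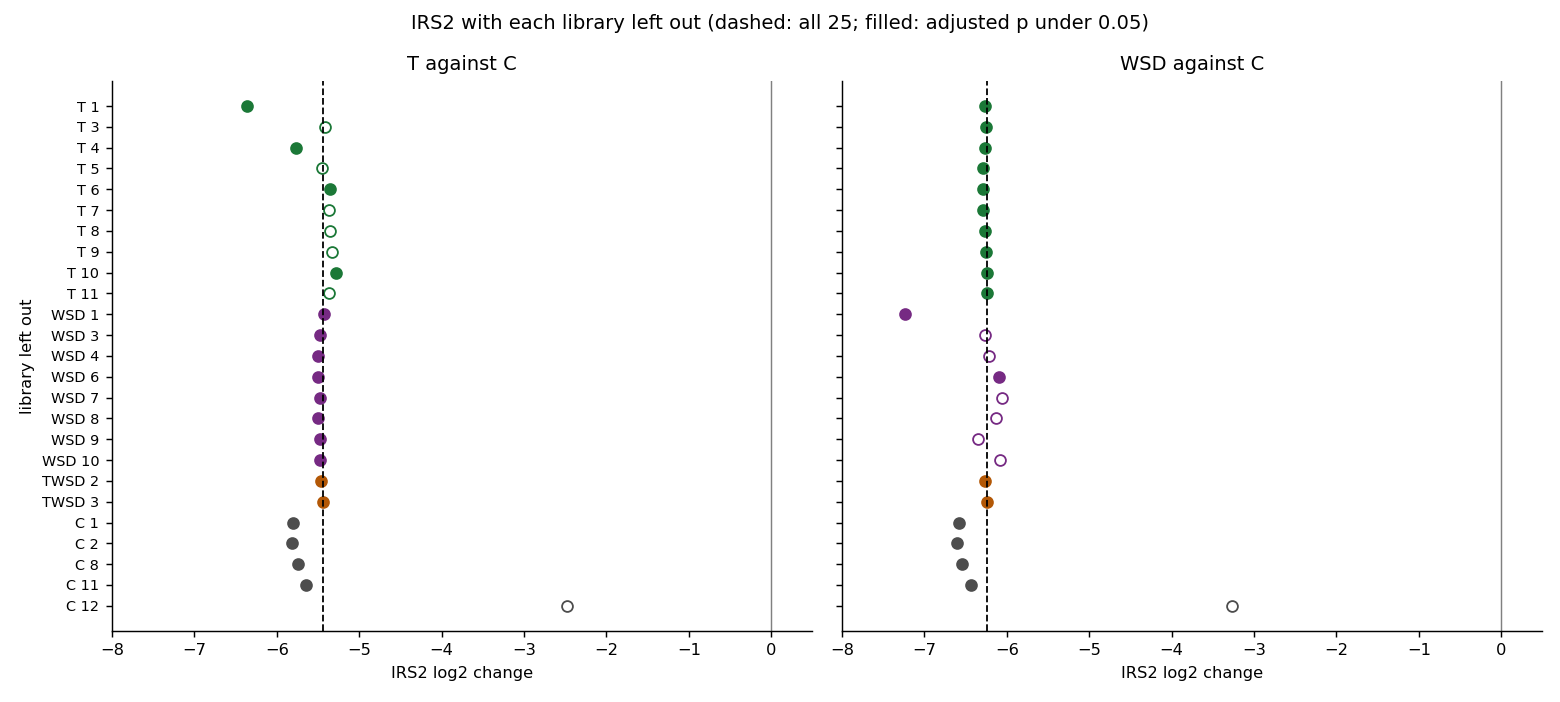
IRS2 log2 change in T against C (left) and WSD against C (right) with each of the 25 libraries left out in turn, from edgeR. Filled points have an adjusted p under 0.05 and the dashed line is the value with all libraries, and leaving out C 12 moves the change to −2.48 in T and −3.27 in WSD.

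IRS1, the other main docking protein, was low in the same way but was not called. It had 0, 0.0891 and 14.9 CPM in T and 0, 0.284 and 2.66 CPM in WSD (lowest, median, highest), and 0 and 0.611 CPM in TWSD 2 and TWSD 3. C 1 and C 2 had 0.0587 and 0.195 CPM, and C 8, C 11 and C 12 had 16.7, 18.2 and 3.13 CPM. The 4 highest libraries were C 11, C 8, T 1 and C 12, the same 4 that held CGA, and the part of their makeup was not tested. The log2 change was −2.06 ± 1.55 in T (adjusted p = 0.539), −3.52 ± 1.72 in WSD (adjusted p = 0.274) and −4.59 ± 3.27 in TWSD (adjusted p = 0.405). With C 1 and C 2 as the only controls the sign turned, to 3.82, 2.38 and 1.30, with adjusted p of 0.998, 0.949 and 0.887. IRS1 and IRS2 did not share their peak: C 12 had 255 CPM of IRS2 and 3.13 CPM of IRS1.

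Among the binding proteins, IGFBP2 was abundant in 24 of 25 libraries and IGFBP3 and IGFBP4 peaked in few. IGFBP2, a carrier made by many fetal tissues, had 154, 209 and 628 CPM in T and 176, 286 and 375 CPM in WSD (lowest, median, highest). TWSD 2 had 161 CPM and TWSD 3 208 CPM, and the C libraries had 244, 460, 198, 84.9 and 0.888 CPM in C 1, C 2, C 8, C 11 and C 12. C 12 lay far below all other libraries and C 11 was the next lowest, the same 2 that had the least POU5F1, and the part of that was not tested. The log2 changes were 0.57 ± 0.59 in T (adjusted p = 0.685), 0.47 ± 0.61 in WSD (adjusted p = 0.768) and −0.10 ± 0.89 in TWSD (adjusted p = 0.959). Without C 8, C 11 and C 12 the T and WSD values turned to −0.23 and −0.33, and the TWSD value was −0.91, with adjusted p of 0.998, 0.957 and 0.481.

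IGFBP3, the main carrier of IGFs in blood, had 0, 5.22 and 149 CPM in T and 0, 3.58 and 47.5 CPM in WSD (lowest, median, highest). TWSD 2 and TWSD 3 had 0.0644 and 0.935 CPM, and C 1, C 2, C 8, C 11 and C 12 had 0, 7.61, 95.2, 1793 and 0.105 CPM. C 11 far exceeded every other library, T 1 and C 8 came next, and C 1 and C 12 lay near the bottom. The log2 change was −4.08 ± 1.50 in T (adjusted p = 0.125), −5.11 ± 1.70 in WSD (adjusted p = 0.0863) and −9.47 ± 3.93 in TWSD (adjusted p = 0.169). DESeq2 called the WSD and TWSD changes (−5.19, adjusted p = 0.02, and −9.66, adjusted p = 0.0017) and not that in T, and over all genes it called 8.08% in T and 8.68% in WSD against C. edgeR called IGFBP3 in T when T 1 was left out (−5.49, adjusted p = 0.0289) and in WSD when C 1 was left out (−5.42, adjusted p = 0.04). Leaving out C 11 gave −0.20 in T, −1.24 in WSD and −5.63 in TWSD, and leaving out C 8, C 11 and C 12 gave 2.59, 1.57 and −2.83 (adjusted p 0.998, 0.957 and 0.649).

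IGFBP4, which binds IGFs until the protease PAPPA cuts it, had 0, 0.0952 and 57.3 CPM in T and 0, 0.0640 and 37.4 CPM in WSD (lowest, median, highest). TWSD 2 and TWSD 3 had 0.0644 and 0.144 CPM, and C 1, C 2, C 8, C 11 and C 12 had 0.0587, 0, 50.7, 164 and 0.0522 CPM. C 11, T 1, C 8 and WSD 3 were the 4 highest libraries for IGFBP4, and the same 4 were the highest for IGFBP3. The WSD 3 library had CGA at 0.481 CPM and POU5F1 at 429 CPM, unlike the other 3 in CGA. C 11 was also highest in the cumulus and granulosa and in the primitive endoderm sums, and the part of either was not tested. The log2 changes were −2.70 ± 1.90 in T (adjusted p = 0.501), −2.97 ± 2.05 in WSD (adjusted p = 0.490) and −8.56 ± 4.97 in TWSD (adjusted p = 0.309). Against C 1 and C 2 alone the sign turned, to 7.55, 7.32 and 1.67 (adjusted p 0.998, 0.836 and 0.895).

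**Figure D4:**
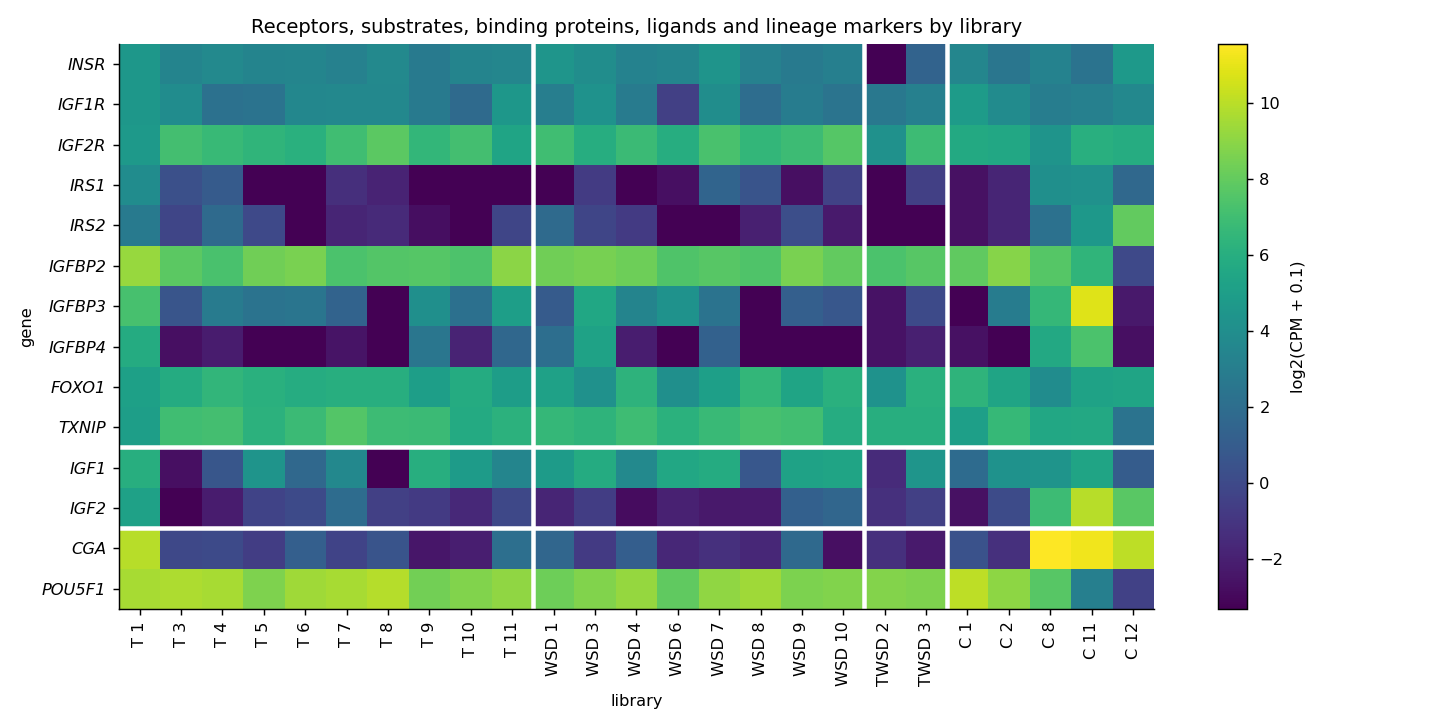
Level as log2(CPM + 0.1) of the 10 genes, of the ligands IGF1 and IGF2 and of the lineage markers CGA and POU5F1, with genes as rows and the 25 libraries as columns in the order T, WSD, TWSD and C. IGFBP3, IGFBP4, IRS1 and IGF2 are high in T 1, C 8 and C 11 along with CGA, while IRS2 has its highest value of 255 CPM in C 12.

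The downstream genes were measured in every library. FOXO1 had 31.5, 57.8 and 87.6 CPM in T and 17.2, 38.7 and 93.0 CPM in WSD (lowest, median, highest). TWSD 2 had 19.4 CPM and TWSD 3 70.9 CPM, and C 1, C 2, C 8, C 11 and C 12 had 81.9, 40.6, 15.1, 37.5 and 41.6 CPM. The groups overlapped throughout, and the whole range was 6.16-fold, the narrowest of the 10 genes. The log2 change against C was 0.36 ± 0.41 in T (adjusted p = 0.716), 0.17 ± 0.42 in WSD (adjusted p = 0.894) and 0.06 ± 0.61 in TWSD (adjusted p = 0.963), and the last was −0.01 with DESeq2's size factors. Against C 1 and C 2 alone FOXO1 was at −0.10, −0.29 and −0.40 (adjusted p = 0.998, 0.967 and 0.835).

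TXNIP had 32.5, 114 and 193 CPM in T and 58.5, 103 and 151 CPM in WSD (lowest, median, highest). TWSD 2 and TWSD 3 had 63.6 and 63.2 CPM, and C 1, C 2, C 8, C 11 and C 12 had 34.2, 101, 48.7, 50.3 and 4.91 CPM. C 12 was lowest of all, and 6 of 10 T and 4 of 8 WSD libraries lay above every C library. TXNIP was higher in T by 1.13 ± 0.44 on the log2 scale (adjusted p = 0.149) and in WSD by 1.11 ± 0.45 (adjusted p = 0.169), neither of which was called, and TWSD gave 0.41 ± 0.62 (adjusted p = 0.725). C 2 decided the call: without it the values were 1.60 in T (adjusted p = 0.0328) and 1.58 in WSD (adjusted p = 0.0392). Against C 1 and C 2 alone the values were 0.66, 0.64 and −0.07, with adjusted p of 0.998, 0.887 and 0.974.

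Treatments were also set against each other. In T against WSD edgeR called 0 of the 10 genes and 0.0% of all genes, 0 of the 10 and 237 of all genes had an unadjusted p under 0.05, and DESeq2 called 0 of the 10 and 6 genes in all, limma-voom none. The log2 differences ran between −0.15 for IGF2R and 1.46 for IRS1, each within 1 standard error of 0, so a difference between the 2 treatments was not detectable at this spread. In TWSD against T, and in TWSD against WSD, edgeR called 0 of the 10 genes and 0.0502% of all genes. INSR was the 1 gene of the 10 with an unadjusted p under 0.05 in each, beside 13.3% of all genes against T and 13.6% against WSD. DESeq2 called 1 of the 10, INSR, in each, beside 4.27% and 4.21% of all genes, and limma-voom called 0. These comparisons share libraries with those against C.

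The ligands differed in where they were found. INS, the insulin gene, had 0 counts in all 25 libraries. IGF1 had 0, 11.6 and 65.2 CPM in T and 1.53, 39.6 and 58.0 CPM in WSD (lowest, median, highest), 0.258 and 21.7 CPM in TWSD 2 and TWSD 3, and 3.58, 19.1, 20.4, 42.0 and 1.93 CPM in C 1, C 2, C 8, C 11 and C 12. IGF1 ranges overlapped in all groups and its log2 changes of 0.26 ± 1.09 in T, 1.03 ± 1.16 in WSD and −0.66 ± 1.70 in TWSD were not called (adjusted p = 0.945, 0.720 and 0.845). With C 1 and C 2 as the only controls they were 0.91, 1.68 and −0.01 (adjusted p = 0.998, 0.935 and 1.0).

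IGF2, the fetal growth factor that IGF2R clears, fell, with a log2 change of −5.93 ± 1.44 in T (adjusted p = 0.021) and −8.37 ± 1.75 in WSD (adjusted p = 0.0117). It had 36.3 CPM in T 1 and at most 3.74 CPM in the other T libraries, 0.0427 to 2.87 CPM in WSD, and 0.322 and 0.611 CPM in TWSD 2 and TWSD 3. C 1 and C 2 had 0.0587 and 0.975 CPM, and C 8, C 11 and C 12 had 118, 1000 and 212 CPM. The 4 highest libraries for IGF2 were thus those with CGA. C 1 and C 2 lay within the range of the treated libraries. Leaving out C 11 (−4.24, adjusted p = 0.0942) or C 12 (−6.02, adjusted p = 0.0738) ended the call in T, the second with no loss of size. In WSD 0 of 25 exclusions of 1 library ended it, with −6.70 without C 11 (adjusted p = 0.0224) and −8.45 without C 12 (adjusted p = 0.0456). Without C 8, C 11 and C 12 together IGF2 had too few counts to be tested.

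Of the 88 other tested genes of the pathway, 1 rose and 8 fell in T against C, or 10.2%, beside 4.11% of all tested genes. In WSD against C 1 rose and 4 fell, or 5.68%, beside 4.07% of all. An unadjusted p under 0.05 in edgeR was found for 31.8% of the 88 in T and 26.1% in WSD, beside 18.3% of all genes in each. DESeq2 called 14.8% in T and 13.6% in WSD, beside 8.08% and 8.68% of all genes, and limma-voom called 0. Their median log2 changes were −0.35 in T and −0.28 in WSD, where all genes had −0.12 in both. In TWSD against C edgeR called 0 of 88, while 22 or 25% had an unadjusted p under 0.05, beside 22.0% of all genes. DESeq2 called 15 or 17.0%, beside 14.6% of all genes, and limma-voom 0. By list, 1 of 8 tested ligands and binding proteins (IGF2) fell in both T and WSD. Among 16 adaptors and receptor regulators, PTPN1, the phosphatase that takes phosphate off INSR, fell, with log2 changes of −1.64 ± 0.40 in T (adjusted p = 0.0204) and −1.93 ± 0.42 in WSD (adjusted p = 0.0133). It had 34.2 to 71.4 CPM in T, 31.6 to 50.9 CPM in WSD and 29.8 to 94.0 CPM in C 1, C 2, C 8 and C 11, against 529 CPM in C 12. Without C 12 its changes were −0.36 and −0.65 (adjusted p = 0.637 and 0.277), and without C 8, C 11 and C 12 they were 0.18 and −0.11 (adjusted p = 0.998 and 0.982).

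In the PI3K, AKT and mTOR arm 1 of 28 genes was called, GSK3B, a kinase that AKT inhibits. In T it fell by 1.26 ± 0.36 on the log2 scale (adjusted p = 0.0481), with 250 CPM in C 12 and 37.0 to 46.9 CPM in the other C libraries, and 18 of the 25 exclusions of 1 library ended that call. Without C 12 the change was −0.23 (adjusted p = 0.821), and without C 8, C 11 and C 12 it was −0.26 (adjusted p = 0.998). In WSD, with all libraries, GSK3B was at −1.265 ± 0.386 and was not called (adjusted p = 0.0597). Among 10 genes of the RAS and MAP kinase arm NRAS, a RAS family GTPase, fell in T (−1.69 ± 0.42, adjusted p = 0.0221), a call that ended without C 8 (−1.48, adjusted p = 0.0537) or without C 12 (−1.14, adjusted p = 0.221). With C 1 and C 2 alone as controls it was −0.05 (adjusted p = 0.998). In WSD, with all libraries, NRAS was at −1.30 ± 0.44 and was not called (adjusted p = 0.0921). It was at 394 CPM in C 12, 268 CPM in C 8 and 27.8 to 82.4 CPM in T.

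Among 15 FOXO factors and known FOXO targets 4 were called lower in T and 2 of them also in WSD, beside 3.77% and 3.6% of all genes called lower. The median log2 change of the list was −1.55 in T and −1.44 in WSD, beside −0.12 over all genes in both. GADD45A, a stress-induced growth arrest gene, fell by 2.97 ± 0.58 in T (adjusted p = 0.00682) and 2.72 ± 0.62 in WSD (adjusted p = 0.015). It had 25.9 to 77.6 CPM in T, 13.8 to 112 CPM in WSD and 37.4 to 143 CPM in C 1, C 2, C 8 and C 11, against 1422 CPM in C 12. CITED2, a transcriptional coregulator, fell by 1.21 ± 0.34 in T (adjusted p = 0.0436) and by 1.39 ± 0.36 in WSD (adjusted p = 0.0301), with 797 CPM in C 12 and 722 CPM in C 8. BCL6, a transcriptional repressor, and FOXO6, a relative of FOXO1, were called lower in T, with −5.52 ± 1.34 and −3.47 ± 0.88 (adjusted p = 0.0201 and 0.0266). In WSD they were at −4.33 and −2.97 and were not called (adjusted p = 0.0748 and 0.071). BCL6 was at 129 CPM in C 12 and at most 4.87 CPM in any other library. Each of these calls ended without C 12, with unequal changes left. In T GADD45A was then at −0.79 and BCL6 at −0.71, while FOXO6 was at −2.83 and CITED2 at −0.85, with adjusted p of 0.412, 0.898, 0.17 and 0.295. In WSD without C 12 GADD45A was at −0.55 and CITED2 at −1.04 (adjusted p = 0.664 and 0.184). Against C 1 and C 2 alone GADD45A was at −0.47, BCL6 at −1.0, FOXO6 at −1.95 and CITED2 at 0.22 in T, and GADD45A at −0.23 and CITED2 at 0.03 in WSD, with adjusted p of 0.973 or more. The CITED2 calls also ended without C 8 and without single treated libraries, 11 of 25 exclusions in T and 6 of 25 in WSD, C 8 and C 12 included.

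Of 11 TXNIP partners and glucose-sensing genes HK2 rose, a hexokinase that traps glucose in the cell. Its level was 366 to 1112 CPM in T and 479 to 968 CPM in WSD, 552 and 649 CPM in TWSD, and 553, 351, 165, 28.7 and 82.5 CPM in C 1, C 2, C 8, C 11 and C 12. HK2 thus reached the treated range in C 1, and C 11 and C 12 lay far below it. The rise was 1.58 ± 0.42 in T (adjusted p = 0.0329) and 1.70 ± 0.44 in WSD (adjusted p = 0.0284), and 0.68 and 0.79 without C 8, C 11 and C 12 (adjusted p = 0.977 and 0.703). Leaving out C 8 or C 12, and in T also T 8 or T 10, ended these calls, although without C 12 the changes were still 1.37 in T and 1.48 in WSD (adjusted p = 0.147 and 0.11). Without C 12 alone, 0 of the 9 pathway calls in T and 1 of the 5 in WSD (IGF2, −8.45, adjusted p = 0.0456) stood, but IGF2, FOXO6, CITED2, HK2 and NRAS kept most of the size of their change, as given above. Without C 8, C 11 and C 12 none of the pathway calls stood, and IGF2 could not be tested. The same 3 libraries held the high CGA, and the part of that in these counts was not tested.

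**Figure D5:**
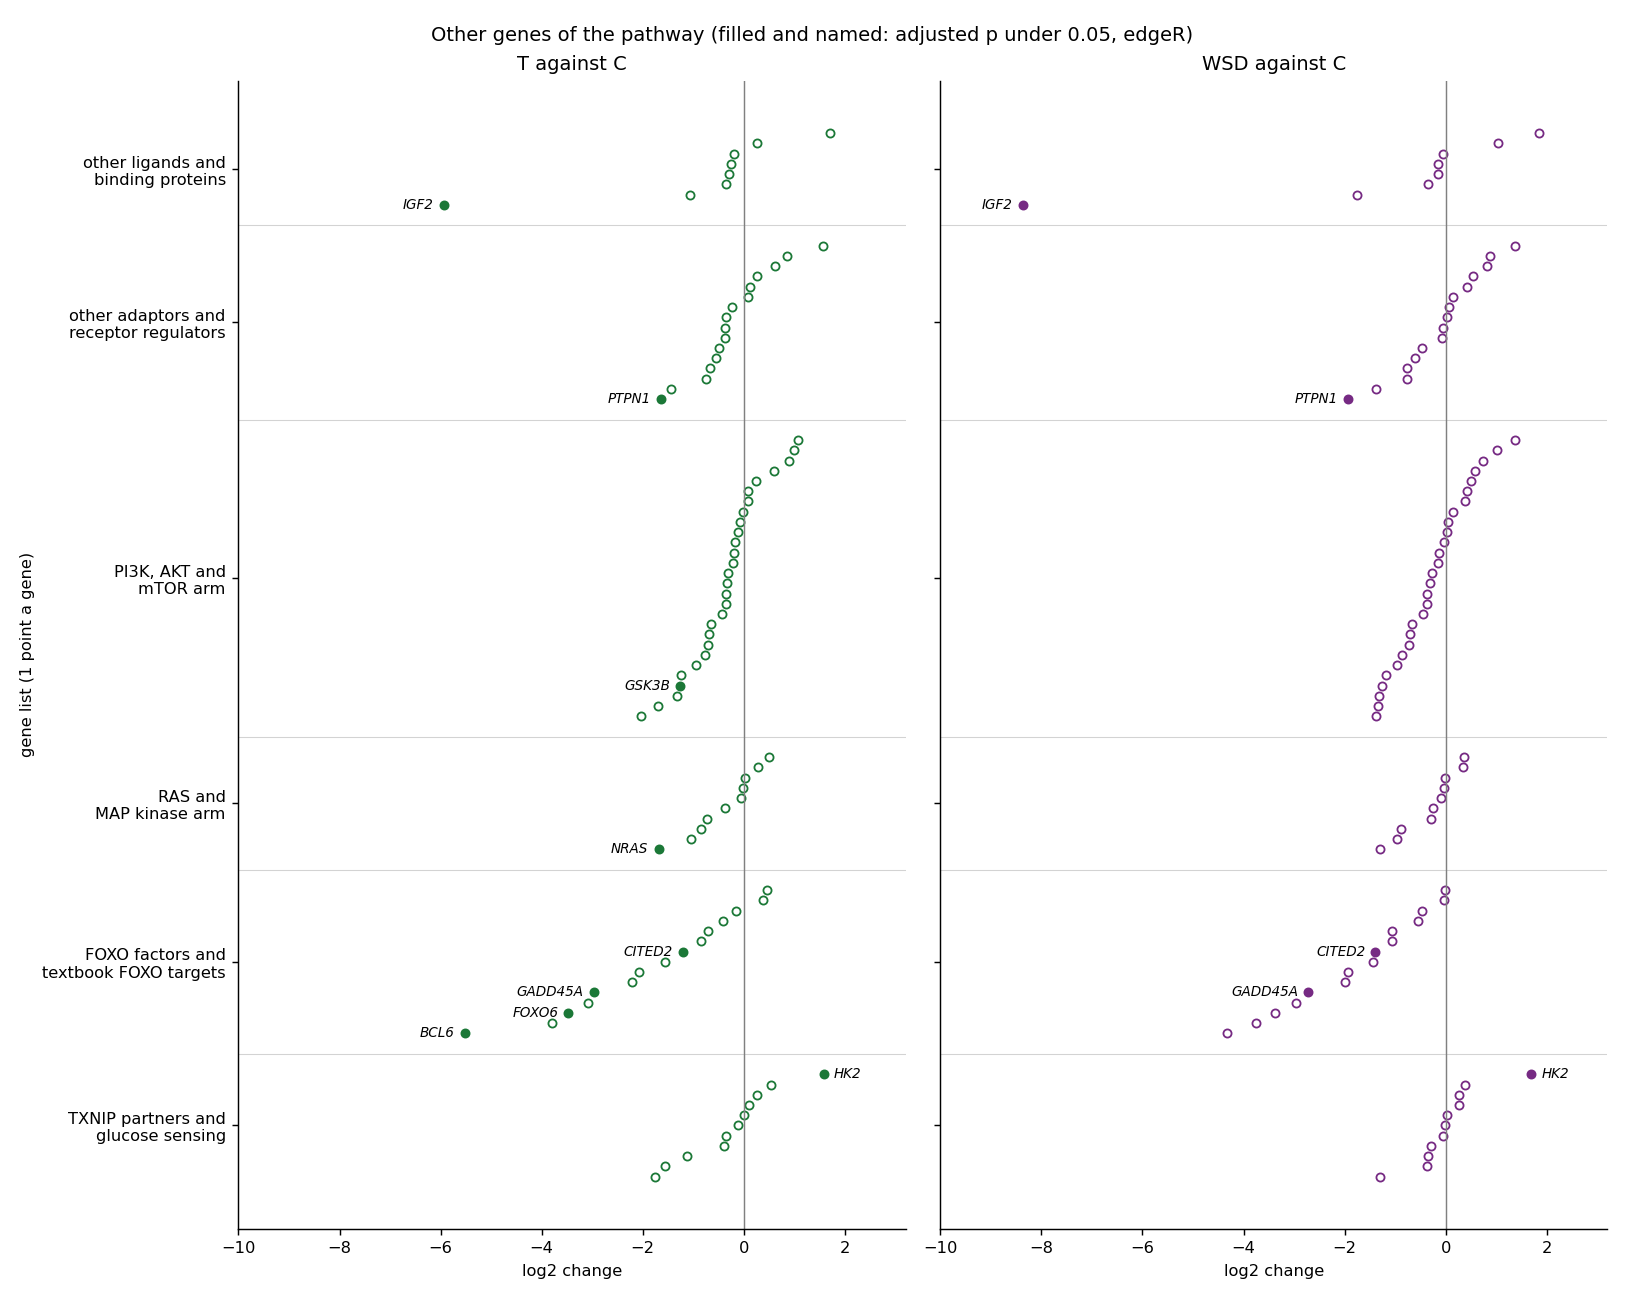
Log2 change in T against C (left) and WSD against C (right) of the 88 other tested genes of the pathway, 1 point per gene, grouped by list and ordered by size within it. Filled and named points have an adjusted p under 0.05 by edgeR, 9 in T and 5 in WSD, and all of them but HK2 lie below 0.

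The genes whose levels followed each of the 10 most closely were found by Spearman's rho of log2 CPM over the 25 libraries among 12570 genes, as a description. Libraries share depth and makeup, so the value over the 21 libraries without T 1, C 8, C 11 and C 12 is given second. Closest to INSR were SOCS7 (0.75, then 0.81) and AKAP11 (0.73, then 0.78), and to IGF1R MMP9 and GAD2 (both 0.68, then 0.71). IGF2R was followed most closely by HK2 (0.83, then 0.82) and GTF3C1 (0.82, then 0.76). ALLC (0.81, then 0.68) and ATXN2L (0.79, then 0.66) were nearest to IRS1, and PDE5A (0.94, then 0.90) to IRS2. H1-5 (0.76, then 0.73) and CLEC4C (0.74, then 0.59) were nearest to IGFBP2.

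For IGFBP3 the closest were RARRES1 (0.84, then 0.78) and CNTNAP2 (0.83, then 0.73), and for IGFBP4 they were CAVIN2 (0.81, then 0.76) and PDXDC1 (0.77, then 0.71). FOXO1 was followed by CKB (0.84, then 0.88) and RAB5C (0.81, then 0.80), and TXNIP by STK38 (0.76, then 0.73) and FCRLB (0.75, then 0.78). Several pairs kept nearly the same value without the 4 libraries, among them IGF2R with HK2, FOXO1 with RAB5C and TXNIP with FCRLB. The named genes were picked as the closest of 12570 in the 25 libraries, which include these 21. A value that held in the 21 is therefore no separate support for a pair.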

How the data were processed

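For 25 blastocyst libraries the authors deposited raw gene counts, not normalized, in 1 table. The submitters' processing notes name FastQC 0.11.8, Trimmomatic 0.39, STAR 2.7.0 and the genome build Mmul_10. Not given in the sources used here are the read counter, annotation release, strand setting and duplicate handling, so reads of overlapping or antisense genes cannot be told apart. In the RefSeq annotation of another build, IRS2 and TXNIP each overlap 1 protein-coding gene, INSR overlaps 9 long noncoding RNAs and 1 pseudogene, IGF1R 1 long noncoding RNA, and IGF2R and FOXO1 1 pseudogene each. Symbols were matched for 24173 of 35395 identifiers.

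The 13934 genes that reached 1 CPM in 5 or more libraries were fitted over all 25 libraries, with group as the only term, in edgeR 4.0.16 (R 4.3.3, TMM scaling, robust quasi-likelihood) with a biological coefficient of variation of 0.9. P-values were adjusted by Benjamini-Hochberg over all tested genes, with a threshold of 0.05, and standard errors are the log2 change divided by the square root of F. Library totals were 14219054 to 35544542 counts, and limits from 0 counts (3 counts) cover counting error only. Alternatives were DESeq2 1.42.0, its size factors in edgeR, library totals, no filter, limma 3.58.1 voom with quality weights, a replicate block, groups alone, and leaving out libraries. No pair of libraries was identical. The 10 genes and all gene lists were chosen with earlier results of these data known. Named are all 10, the called genes of each pathway list (at most 6 per list and comparison), and the 2 genes nearest to each of the 10 by Spearman's rho, of which 1 for IRS2 is not reported here. SH2B1 and GSK3A of the pathway lists were not analysed here.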

Additional observations from a re-analysis of the deposited data

Results flagged for a closer look

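In 10 of the 30 combinations of the 10 genes and the groups T, WSD and C, 1 library stood far from the rest of its group by Dixon's criterion. For normally distributed values the criterion is met in about 1 of 20 groups. It was applied to CPM without a log, which are skewed, so that rate does not hold here and the 10 cannot be set against it. TWSD, with 2 libraries, could not be examined in this way. T 1 stood out in 5 genes, all upwards, with 23.2 CPM of INSR, 14.9 CPM of IRS1, 6.84 CPM of IRS2, 149 CPM of IGFBP3 and 57.3 CPM of IGFBP4. WSD 3 stood out in both IGFBP3, at 47.5 CPM, and IGFBP4, at 37.4 CPM, and WSD 1 in IRS2, at 3.46 CPM. Among C libraries C 12 stood out in IRS2 at 255 CPM and C 11 in IGFBP3 at 1793 CPM. No library was flagged in IGF1R, IGF2R, IGFBP2, FOXO1 or TXNIP by this criterion. All flags were for high libraries, although low ones were found too. C 12 had 0.888 CPM of IGFBP2 and 4.91 CPM of TXNIP, where the next lowest C libraries had 84.9 and 34.2 CPM.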

How the results depend on the processing

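The 34 alternatives are DESeq2, its size factors in edgeR, library totals, no filter, voom with quality weights, a replicate block, leaving out C 8, C 11 and C 12 (also with T 1), the compared groups alone, and each of 25 libraries left out. Genes called numbered 573 in T against C, 567 in WSD against C and 167 in TWSD against C, and 0, 7, 7 and 10 in T against WSD, TWSD against T, TWSD against WSD and the difference of differences. In that order they numbered 1102, 1185, 1995, 6, 583, 574 and 395 with DESeq2. Library totals gave 240 in T, 321 in WSD and 96 in TWSD against C, then 4, 4 and 5 for the last 3 comparisons. Without a filter TWSD against C had 92 and the last 3 had 3, 3 and 4, and DESeq2's size factors gave 4 in TWSD against T. Voom and the replicate block gave 0 throughout. Without C 8, C 11 and C 12 the counts were 0, 1 and 20 against C, then 275, 335 and 3 for the last 3 comparisons. Without T 1 too they were 0, 1 and 71, then 273 and 476. The compared groups alone gave 67, 6 and 0 against C, then 1 and 1 for TWSD against T and against WSD. The cause of these moves was not tested. Deviations from the group means correlated at −0.38 to 0.22 in the 16 same-number pairs (median −0.013). In the 200 different-number pairs they correlated at −0.34 to 0.38 (median −0.001). Libraries of equal replicate number were thus no more alike than others, so the block shows only what shared numbers do.

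Leaving out 1 library gave 40 (without C 12) to 1287 (without C 1) called genes in T, 51 to 1110 in WSD (the same libraries) and, without TWSD 2 and without TWSD 3, 0 and 2786 in TWSD against C, 0 and 2479 against T, 0 and 2578 against WSD and 0 and 2245 in the difference of differences. The remaining TWSD library is then assumed to vary like the other groups. Of the 10 genes, 0 to 2 were called in T, in WSD, in TWSD against WSD and in the difference of differences, and 0 to 1 in TWSD against C and against T. DESeq2 called 2 in WSD against C, 3 in TWSD against C and 1 in each of the last 3 comparisons. Totals, no filter, voom, the block, both multiple exclusions and the groups alone called 0 of the 10 in T and in WSD.

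Signs turned in genes that were not called. DESeq2 and its size factors gave −0.05 for INSR in T and −0.01 for FOXO1 in TWSD against C. Under the replicate block IGF1R in T was 0.13, FOXO1 was −0.16 in T, −0.48 in WSD and −0.03 in TWSD, and in TWSD TXNIP was −0.20 and IGF2R −0.13. Without C 8, C 11 and C 12, and then also without T 1, values in T were −0.23 and −0.44 for IGFBP2, 2.59 and 1.16 for IGFBP3, 7.55 and 4.87 for IGFBP4 and −0.10 and −0.06 for FOXO1. In WSD they were −0.33 and −0.36 for IGFBP2, 1.57 and 1.54 for IGFBP3, 7.32 and 7.31 for IGFBP4 and −0.29 and −0.32 for FOXO1. In TWSD they were 1.67 and 1.68 for IGFBP4, −0.40 and −0.40 for FOXO1 and −0.07 and −0.08 for TXNIP. IRS1 was 3.82 in T, 2.38 in WSD and 1.30 in TWSD in the first exclusion and untested in the second, as was IRS2 in both. IRS2 with all libraries was −4.94 in T and −5.73 in WSD with totals (adjusted p = 0.0681 and 0.0559), −5.39 and −6.19 without a filter (0.075 and 0.0781), and −1.49 and −1.72 with voom (both 0.859). Under the block it was −3.25 and −3.49 (0.862 and 0.997), and with groups alone −5.45 and −6.28 (0.0811 and 0.0957).

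Single exclusions gave −0.13 to 0.60 for INSR in T and −0.01 to 0.72 in WSD, −0.48 to 0.10 for IGF1R in T, −0.05 to 0.54 for FOXO1 in WSD and −1.16 to 0.73 in TWSD, −1.40 to 1.26 for IGF2R in TWSD and −0.41 to 0.50 for IGFBP2 in TWSD. IRS2 ran from −6.36 to −2.48 in T and from −7.24 to −3.27 in WSD. The median of all genes in T against C was −0.12 with TMM, −0.19 with DESeq2's size factors and 0.02 with library totals. IRS1, IRS2 and IGFBP4 had under 1 CPM in most libraries, so their levels rest on few counts there.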
